A study of Arabidopsis thaliana with 12 samples.

Results

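Seedlings of the Arabidopsis thaliana line camta6-5 were sequenced for RNA after 200 mM NaCl for 16 hours, and from camta6-5 seedlings kept at 0 mM NaCl. The comparison used 3 NaCl libraries and 3 control libraries of the 12 in the series, and the members were all genes that passed a filter on low counts, 18515 of the 33602 listed. The other 6 libraries were 3 of wild-type Col-0 with NaCl and 3 of wild-type control. They shared the model, and they are used below only to say where the response of camta6-5 differed. The labels describe the mutant line as a camta6 allele and the material as whole seedlings that had just germinated, raised from cold-treated seeds on dilute Murashige and Skoog agar. They give neither the lesion nor whether the 3 libraries of a group came from separate cultures, so p-values measure the spread between these libraries, which may be technical. The series asks how camta6 mutants germinate in salt.

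CAMTA proteins are transcription factors that bind calmodulin, the sensor that carries calcium signals, and they recognise CGCG-type DNA elements. A dry seed holds messenger RNAs of storage proteins, of oil body proteins and of LEA proteins (late embryogenesis abundant proteins, which protect dry cells). Germination normally removes these messages, while genes of growth, cell division and greening come on. Abscisic acid (ABA) holds this transition back through the factors ABI3 and ABI5, gibberellin pushes it forward, and salt raises ABA signalling in seeds. ABI3 belongs to a family that binds the RY repeat, and ABI5 to one that binds the ABA response element (ABRE).

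Promoters of 10 genes are shown because each gene changed with NaCl and because a short word recurs in them. Each is the 250 bases before the annotated gene start, read from the TAIR10.1 genome in the direction of the gene. In the first set, capitals mark the RY repeat (CATGCA) and the ABRE core (ACGTGTC or ACGTGGC), each searched on both strands, so that a match on the other strand appears as its reverse complement. Matches that overlap run together, and the ABRE core overlaps the G-box (CACGTG). CRA1 and CRU3 encode cruciferins, the main storage globulins, at chr5:17758337-17758586, minus strand and chr4:14087306-14087555, plus strand. PAP85 encodes another cupin-type storage protein (chr3:8013942-8014191, minus strand), and TIP3;2 a water channel of the protein storage vacuole (chr1:6129775-6130024, plus strand). EM6 encodes a LEA protein (chr2:16780369-16780618, minus strand), PER1 a seed peroxiredoxin (chr1:17780179-17780428, plus strand), and RD29B a hydrophilic protein induced by drought and ABA (chr5:21236771-21237020, plus strand).
CRA1: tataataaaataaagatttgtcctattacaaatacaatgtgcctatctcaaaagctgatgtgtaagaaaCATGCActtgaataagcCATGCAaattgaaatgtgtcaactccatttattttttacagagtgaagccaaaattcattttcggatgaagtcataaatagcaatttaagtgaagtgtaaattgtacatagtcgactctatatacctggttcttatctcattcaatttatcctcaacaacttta
CRU3: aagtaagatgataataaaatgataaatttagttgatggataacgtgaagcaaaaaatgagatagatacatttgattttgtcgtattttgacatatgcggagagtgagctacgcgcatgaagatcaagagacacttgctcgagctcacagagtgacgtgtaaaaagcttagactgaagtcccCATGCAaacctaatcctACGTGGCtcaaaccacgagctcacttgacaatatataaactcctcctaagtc
PAP85: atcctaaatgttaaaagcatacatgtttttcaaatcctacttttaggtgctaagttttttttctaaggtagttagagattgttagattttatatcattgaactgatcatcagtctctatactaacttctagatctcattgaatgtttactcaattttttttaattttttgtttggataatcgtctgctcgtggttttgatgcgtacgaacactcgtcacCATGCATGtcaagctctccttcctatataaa
TIP3;2: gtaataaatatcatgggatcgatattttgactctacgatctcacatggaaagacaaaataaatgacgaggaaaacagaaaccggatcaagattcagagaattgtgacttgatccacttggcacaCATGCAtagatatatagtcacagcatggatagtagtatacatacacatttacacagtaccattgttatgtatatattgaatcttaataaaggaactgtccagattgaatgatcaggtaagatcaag
EM6: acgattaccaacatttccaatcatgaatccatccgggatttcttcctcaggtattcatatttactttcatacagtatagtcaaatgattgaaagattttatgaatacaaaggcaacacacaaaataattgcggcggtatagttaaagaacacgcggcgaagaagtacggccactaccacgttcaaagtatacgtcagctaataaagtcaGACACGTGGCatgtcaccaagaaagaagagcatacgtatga
PER1: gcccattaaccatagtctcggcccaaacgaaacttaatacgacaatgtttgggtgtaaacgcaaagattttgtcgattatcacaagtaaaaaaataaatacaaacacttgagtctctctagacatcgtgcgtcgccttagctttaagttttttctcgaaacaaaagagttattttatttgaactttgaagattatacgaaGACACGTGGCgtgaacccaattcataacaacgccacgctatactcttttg
RD29B: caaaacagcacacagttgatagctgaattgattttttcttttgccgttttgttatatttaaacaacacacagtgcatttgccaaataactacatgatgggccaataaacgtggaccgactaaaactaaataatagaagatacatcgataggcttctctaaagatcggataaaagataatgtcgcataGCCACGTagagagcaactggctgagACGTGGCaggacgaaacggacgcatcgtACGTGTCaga
In the second set, capitals mark the E2F site (TTTCCCGC or TTTGGCGC), which the E2F factors of the cell cycle bind, and site II (TGGGCC), an element of ribosomal protein and replication genes. MCM3 (chr5:18773707-18773956, minus strand) and MCM4 (chr2:7130730-7130979, minus strand) encode parts of the helicase that opens DNA for replication, and RPS24B (chr5:10070900-10071149, minus strand) a protein of the small ribosomal subunit.
MCM3: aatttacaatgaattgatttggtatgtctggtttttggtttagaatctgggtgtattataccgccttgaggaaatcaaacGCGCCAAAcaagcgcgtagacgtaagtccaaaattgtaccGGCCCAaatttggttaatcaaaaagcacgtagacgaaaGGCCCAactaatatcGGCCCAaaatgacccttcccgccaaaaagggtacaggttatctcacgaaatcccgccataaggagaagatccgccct
MCM4: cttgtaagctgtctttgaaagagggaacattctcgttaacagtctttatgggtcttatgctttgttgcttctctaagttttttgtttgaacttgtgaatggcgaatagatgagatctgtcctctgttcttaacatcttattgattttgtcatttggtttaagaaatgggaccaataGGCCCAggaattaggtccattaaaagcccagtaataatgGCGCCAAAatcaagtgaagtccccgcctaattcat
RPS24B: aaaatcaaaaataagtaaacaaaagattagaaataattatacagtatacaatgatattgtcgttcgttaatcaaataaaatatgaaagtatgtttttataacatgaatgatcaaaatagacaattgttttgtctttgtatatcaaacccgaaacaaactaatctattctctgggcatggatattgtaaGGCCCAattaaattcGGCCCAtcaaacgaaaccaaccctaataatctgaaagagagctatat

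A 250-base promoter was read for 18445 of the 18515 genes. The RY repeat was present in 12 of 13 promoters of the storage list (92.3%), against 7.31% of all promoters, and the ABRE core in 12 of 20 of the LEA list (60.0%), against 7.77% of all. Genes at least 2-fold higher with NaCl held an ABRE core in 198 of 1115 promoters (17.8%), and genes at least 2-fold lower in 7.92%. Of the 1434 genes with an ABRE core, 36.1% were called higher, against 27.6% of genes without one, so most genes with the word were not called higher. The E2F site stood in 6 of 23 promoters of the DNA replication list (26.1%), against 1.02% of all. Of the 188 genes with an E2F site, 42.6% were called lower, against 27.4% of genes without. Site II stood in 102 of 182 promoters of cytosolic ribosomal proteins (56.0%), against 17.8% of all, and the telo box (AAACCCTA) in 20.3%, against 3.96% of all. Over all tested promoters, 27.6% of genes with site II were called lower, the same share as of genes without. Of the 1349 genes with an RY repeat, 30.3% were called higher and 29.9% lower, against 28.1% and 27.4% of genes without. The RY repeat was in 13.1% of promoters of genes at least 2-fold higher and in 10.8% of those at least 2-fold lower. Of the CGCG-type elements that CAMTA proteins recognise, only the words ACGCGT and CGCGTT were searched, here called the CGCG box. It was in 3.14% of promoters of genes at least 2-fold higher, in 3.36% of those at least 2-fold lower and in 3.68% of all. Other CGCG-type words, which some of the printed promoters hold, were not counted. In a shorter window the ABRE share of the higher genes was 13.2%, against 5.56% of all. A match only says that the letters are there, and no test was made of these shares.

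**Figure D1:**
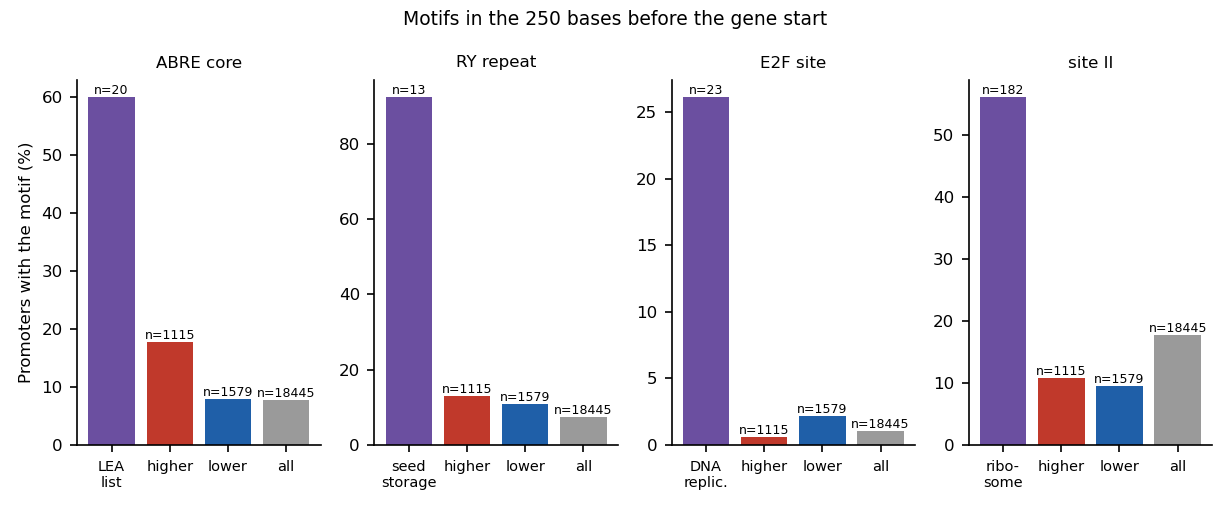
Share of promoters (%, y axis from 0, a scale of its own in each panel) that hold the named word within 250 bases of the gene start, for a gene list (purple), genes called higher at least 2-fold (red), genes called lower at least 2-fold (blue) and all tested genes (grey); n is the number of promoters. The RY repeat is in 92.3% of storage list promoters against 7.31% of all, and the ABRE core in 17.8% of promoters of the higher genes against 7.92% of the lower ones.

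The 3 NaCl libraries held 29473212 to 35241845 counts and the 3 control libraries 30363367 to 33110796. Values below are CPM, counts per 1000000 counts after TMM scaling, and a count of 0 in 1 library allows up to 0.085 to 0.1 CPM, taking 3 counts as the limit and covering counting error only. Reads of 18S ribosomal RNA, which RNA selection should remove, made up 0.573%, 0.422% and 0.0652% of the counts with NaCl, and 1.03%, 0.108% and 0.536% in control. Among 15708 genes above 1 CPM in both groups, the median coefficient of variation was 6.74% over the NaCl libraries and 9.3% over the control libraries. Marker sums are given as CPM before TMM scaling. Root tip markers were present, with summed levels of 58.5 to 65.9 CPM with NaCl and 72.6 to 83.3 CPM in control. Of those 5 markers 4 were tested, and SCR and SHR, which pattern the root ground tissue, fell by 0.33 and 0.61 on the log2 scale. Of 8 root hair markers 2 were tested, and RHD6 made up nearly all of their sum of 6.36 to 8.28 CPM with NaCl and 5.98 to 7.22 CPM in control, while COBL9, RSL4, PRP1 and PRP3 had no count. The 4 endosperm markers summed to 59.4 to 86.8 CPM with NaCl and to 39.3 to 55.9 CPM in control, with ZOU at 0 throughout, and 1 of the 3 tested rose. Seed coat markers summed to 14.8 to 15.4 CPM with NaCl and to 18.9 to 26.1 CPM in control, with BAN and TT10 at 0. Of the 2 tested, 1 rose and 1 fell. The part of tissue make-up in the results was not tested, and in whole seedlings fewer cells of a type cannot be told apart from less RNA per cell.

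CAMTA6 itself had 38.2, 41.1 and 52.3 CPM in the libraries labelled camta6-5 with NaCl, and 35.4, 33.2 and 35.6 CPM in those of control. The transcript was thus counted in every library of the mutant, and a count for a whole gene cannot tell which stretch of it was read. Its log2 fold change, NaCl over control throughout, was 0.33 ± 0.13 (SE; adjusted p = 0.0388 by edgeR's quasi-likelihood test with Benjamini-Hochberg adjustment, the test used throughout). Without NaCl library 3 it was 0.19 (adjusted p = 0.206), and the call was also lost with each control library in turn left out and in DESeq2 (0.30, adjusted p = 0.0543). Below, "rose" and "fell", like "called higher" and "called lower", stand for an adjusted p under 0.05 over all tested genes in this two-sided test.

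Most of the measured genes of camta6-5 changed with NaCl, mostly by less than 2-fold. Of 18515 genes 10301 were called (55.6%), 5216 higher (28.2%) and 5085 lower (27.5%). Changes of at least 2-fold were called for 1117 genes higher (6.03%) and 1580 lower (8.53%), of at least 4-fold for 382 higher and 500 lower, and of at least 8-fold for 183 higher and 171 lower. The median size of a called change was 0.58 on the log2 scale, and 73.8% of calls were under 2-fold. All 3 NaCl libraries lay above all 3 control libraries for 5884 genes (31.8%), and below them for 5617 (30.3%). The plot of every gene shows the scale of it, with the storage and LEA genes at the top right and ribosomal genes in a tight band below 0.

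**Figure D2:**
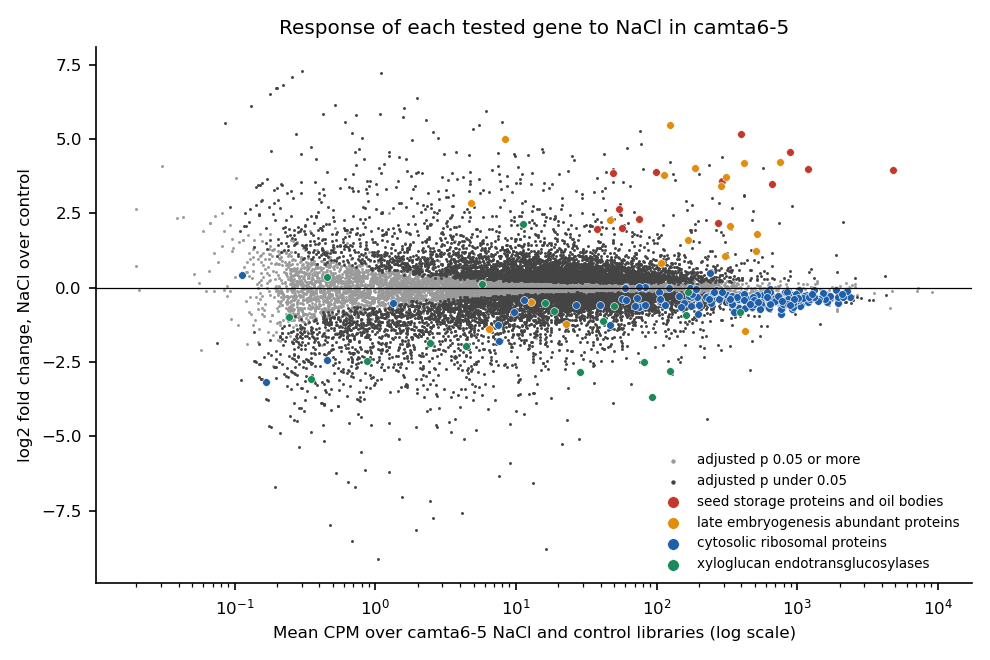
Each point is 1 of the 18515 tested genes, with its mean CPM over the NaCl and control libraries of camta6-5 on the x axis (log scale) and its log2 fold change, NaCl over control, on the y axis. Dark points passed the test, grey ones did not, and 4 gene groups are coloured; all 13 storage list genes lie above 0 and 147 of 182 cytosolic ribosomal genes were called lower.

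The 8 largest rises among well-measured genes were of seed genes for the most part. Only genes whose NaCl and control libraries did not overlap could be chosen, here and for the falls below. ECP31, a LEA protein of the maturing embryo, had 251, 179 and 301 CPM with NaCl, and 4.66, 8.9 and 2.76 CPM in control. PAP85 had 759.9, 493 and 1085 CPM with NaCl, and 19.5, 32.4 and 12.7 CPM in control. SESA5, a storage albumin, had 1779.8, 1099 and 2200.2 CPM with NaCl, and 54.8, 122 and 40.8 CPM in control. In all 3 genes the lowest NaCl library (replicate 2) was far above the highest control library. Their log2 fold changes were 5.48 ± 0.36, 5.18 ± 0.41 and 4.55 ± 0.39 (edgeR adjusted p = 2.62e-07, 8.37e-07 and 1.48e-06), and that of SESA5 was 5.15 without control library 2.

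TIP3;2 had 141, 104 and 202 CPM with NaCl, and 4.26, 5.05 and 2.19 CPM in control, a log2 fold change of 5.27 ± 0.30 (edgeR adjusted p = 1.12e-07). It overlaps a neighbouring gene, and the kit did not mark strand, so reads from the shared stretch cannot be assigned to either gene. A pair of genes for seed-type metallothioneins, small proteins that bind zinc, rose together. AT2G23240 had 119, 88.2 and 149 CPM with NaCl, and 5.35, 6.06 and 2.39 CPM in control, and AT2G42000 had 30.5, 23.5 and 35.8 CPM with NaCl, and 1.21, 1.79 and 0.797 CPM in control. Their log2 fold changes were 4.69 ± 0.29 and 4.55 ± 0.24 (edgeR adjusted p = 1.65e-07 and 5.99e-08). AT3G05260, a predicted dehydrogenase of the Rossmann-fold type, rose by 4.83 ± 0.29. The cytochrome P450 CYP81D8 rose by 4.67 ± 0.68, with a wide spread: 12.6, 13.4 and 61.7 CPM with NaCl, and 1.09, 1.24 and 1.1 CPM in control. Here NaCl library 3 held several times the level of the other NaCl libraries, and all 3 stayed above control; without it the log2 fold change was 3.51.

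The 8 largest falls, chosen by the same rule, were of genes of the surface and the wall for the most part. AT2G45180, predicted as a lipid-transfer type protein, was nearly absent with NaCl, at 0.029, 0.114 and 0.067 CPM, from 1, 4 and 2 counts, and had 16.6, 23.5 and 57.5 CPM in control. CER1, an enzyme that makes the alkanes of cuticular wax, had 0.058, 0.541 and 0.201 CPM with NaCl, and 16.4, 14.4 and 47.8 CPM in control. Both sets of libraries were far apart, and control library 3 was the highest for either gene. Their log2 fold changes were -8.78 ± 0.89 and -6.57 ± 0.74 (edgeR adjusted p = 5.39e-06 and 1.17e-05). Without control library 3 they were -8.08 and -5.81, and CER1 was at -7.67 without NaCl library 2.

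KCS19, an enzyme of very-long-chain fatty acid synthesis, had 0.638, 1.45 and 1.27 CPM with NaCl, and 14.7, 15.5 and 34.6 CPM in control. The pectin methylesterase gene PMEPCRA had 17.4, 30.5 and 12.8 CPM with NaCl, and 363, 361 and 584 CPM in control. The extensin-like gene ELP had 4.55, 7.89 and 5.96 CPM with NaCl, and 65.3, 89.4 and 119.7 CPM in control. The log2 fold changes were -4.26 ± 0.41, -4.42 ± 0.31 and -3.89 ± 0.29. Outside the surface and the wall, SDI1, a gene induced by sulfur deficiency, had 2.29, 1.82 and 0.636 CPM with NaCl, and 63.2, 54.3 and 45.1 CPM in control (log2 fold change -5.07 ± 0.35, edgeR adjusted p = 3.39e-07). AT4G15160, again predicted as a lipid-transfer type protein, and the uncharacterised AT3G23450 fell by 5.24 ± 0.43 and 4.46 ± 0.44 on the log2 scale. Without NaCl library 2, AT4G15160 was at -6.13.

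**Figure D3:**
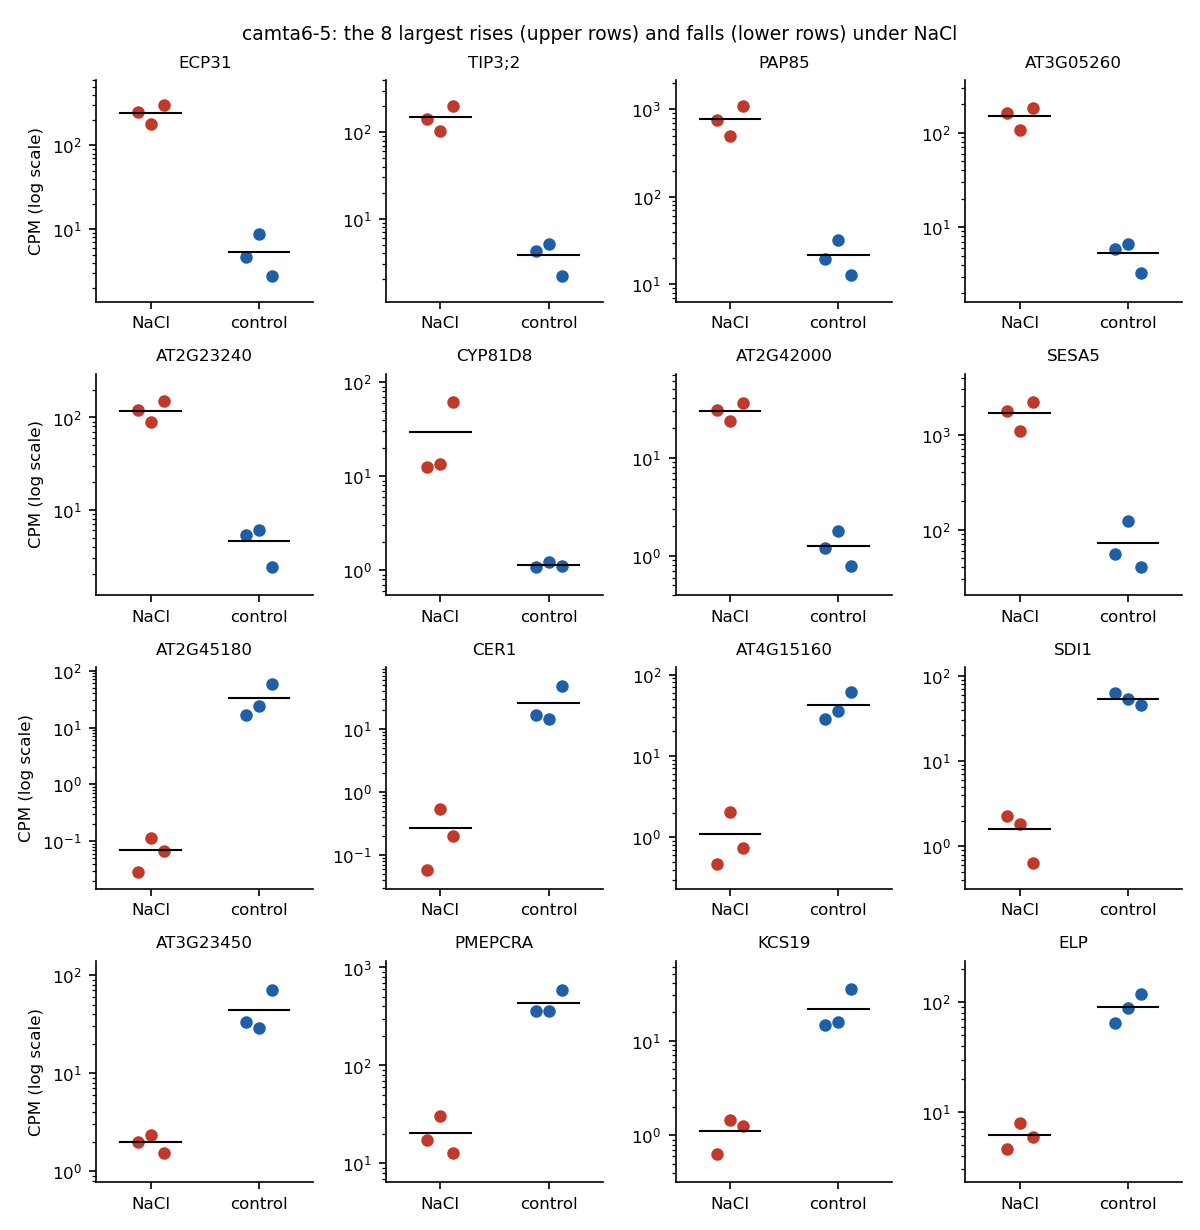
CPM (log scale) in each camta6-5 library for the 8 largest rises (upper rows) and 8 largest falls (lower rows), with NaCl libraries in red at the left, control libraries in blue at the right and a bar at the mean of 3. Genes were chosen among those whose libraries do not overlap; CYP81D8 spans 12.6 to 61.7 CPM with NaCl.

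Seed reserve messages rose without exception. All 13 tested genes of the storage and oil body list rose at least 2-fold, with a median log2 fold change of 3.6, where the median of all tested genes was 0.01. Together they summed to 12140 to 20670 CPM with NaCl, and to 745 to 1586 CPM in control. CRA1 was the most counted gene with NaCl, at 9204, 6630.2 and 11438 CPM, against 607, 757 and 380.4 CPM in control. CRU3 had 2333, 1632 and 2761 CPM with NaCl, and 139, 192 and 89.6 CPM in control. The oleosin OLEO4, which coats oil bodies, had 198, 134 and 227 CPM with NaCl, and 10.1, 19.9 and 7.44 CPM in control. In each gene replicate 2 was the lowest of NaCl and the highest of control, and the groups stood far apart. CLO1, a caleosin of the oil body, rose by 3.87, and SESA1, an albumin with the smallest change of the list, by 1.96 ± 0.16. Members of the cruciferin and albumin families resemble each other in sequence, and how reads shared between genes were counted is not given in the sources used here.

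LEA genes rose as a group with exceptions. Of 20 tested, 16 rose, 3 fell and 1 was not called, with a median of 2.18. Their levels summed to 5907 to 8446 CPM with NaCl and to 1633 to 2287 CPM in control. EM6 had 647, 464 and 639.6 CPM with NaCl, and 53.5, 52.2 and 26.1 CPM in control. The dehydrin gene LTI30 had 20.4, 13.5 and 15 CPM with NaCl, and 0.622, 0.619 and 0.266 CPM in control. Both were above control in each NaCl library, by 3.73 ± 0.29 and 5.00 ± 0.36 (edgeR adjusted p = 7.64e-07 and 4.44e-07), and LEA14 rose by 2.27. SAG21, a LEA protein of mitochondria linked to senescence, went the other way, with 196, 259 and 229.9 CPM with NaCl and 575, 657 and 643 CPM in control. Its log2 fold change was -1.45 ± 0.14. LEA7 rose by 0.84 ± 0.24, the edgeR adjusted p was 0.00963, and it overlaps another gene.

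Seed regulators rose more modestly. Of 23 tested 16 rose (69.6%) and 4 fell (17.4%), with a median of 0.56. ABI3 had 398, 384 and 391 CPM with NaCl, and 270.0, 263 and 261 CPM in control, a narrow but clean separation (log2 fold change 0.56 ± 0.076, edgeR adjusted p = 4.8e-05). SOM, a zinc finger protein that restrains germination in the dark, had 274, 209 and 346 CPM with NaCl, and 86.6, 76.1 and 65.0 CPM in control. MFT, a relative of the flowering signal FT that acts in seed germination, had 17.3, 17.1 and 21.3 CPM with NaCl, and 0.902, 1.37 and 0.199 CPM in control. SOM and MFT were thus several times higher in each NaCl library, by 1.86 ± 0.18 and 4.48 ± 0.36, and the seed factor EEL rose by 1.98. MFT overlaps a neighbouring gene. ABF3, another factor of the ABI5 family, which acts mainly after germination, was lower, at 0.638, 0.456 and 0.402 CPM with NaCl and 6.09, 3.59 and 9.67 CPM in control.

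Of 21 receptors, phosphatases and kinases of the ABA pathway, 10 rose (47.6%) and 7 fell (33.3%), beside 28.2% and 27.5% of all tested genes. By role, 2 of 9 receptors rose and 7 fell, and 6 of 9 phosphatases rose and none fell; these roles were counted after the values were seen. The receptor genes PYR1, PYL4 and PYL8 fell by 1.1, 1.35 and 0.92 on the log2 scale. PYR1 had 69.8, 83.5 and 78.4 CPM with NaCl, and 173, 152 and 173 CPM in control. Among the phosphatases, which oppose ABA, AHG1 had 111, 73.2 and 101 CPM with NaCl, and 28.3, 20.4 and 18.2 CPM in control, and ABI1 rose by 0.63. The libraries of PYR1 and AHG1 separated completely, in opposite directions. Of 15 genes of ABA metabolism 7 rose and 3 fell. ABA1, an early enzyme of ABA synthesis, rose by 1.51 ± 0.13, and NCED9, which makes the committed cleavage in seeds, had 3.77, 3.19 and 7.0 CPM with NaCl and 0.964, 0.880 and 0.598 CPM in control. Of the enzymes that inactivate ABA, CYP707A2 rose by 1.21 and CYP707A3 fell by 1.0.

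Of the 17 stress marker genes 4 rose (23.5%) and 5 fell (29.4%), with a median of -0.16, close to the shares of all tested genes, 28.2% and 27.5%. The same shares of all tested genes are the background for each list count of genes that rose or fell, above and below. RD29B, whose promoter is printed above, had 70.1, 46.9 and 63.7 CPM with NaCl, and 16.6, 7.17 and 8.31 CPM in control. Cold factors were lower: CBF1 had 4.96, 4.84 and 4.12 CPM with NaCl, and 14.4, 12 and 12.3 CPM in control, and CBF2 fell by 0.98. Among 21 genes of calcium sensing and the CAMTA family, 3 rose and 8 fell. CAMTA4 and CAMTA5 rose by 0.90 ± 0.13 and 0.85 ± 0.091. CML38, a calmodulin-like protein, fell furthest in that list, with 7.98, 6.86 and 5.86 CPM with NaCl and 68.1, 53.6 and 71.5 CPM in control (log2 fold change -3.22 ± 0.16, edgeR adjusted p = 5.01e-08).

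**Figure D4:**
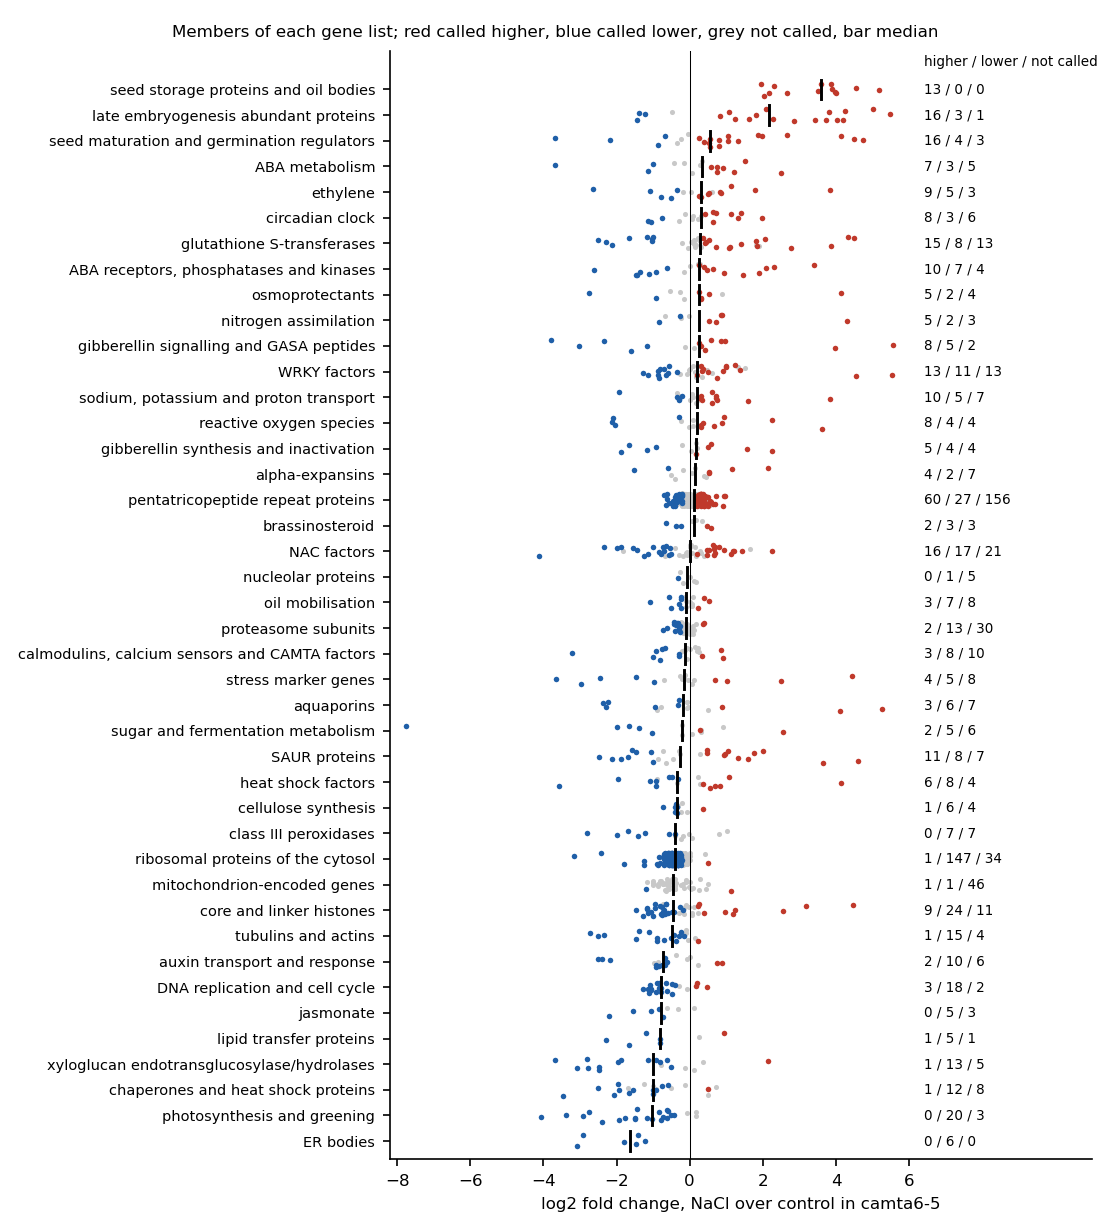
Log2 fold change, NaCl over control in camta6-5, of each tested member of the gene lists (x axis), with lists ordered by their median (black bar). Red members were called higher, blue called lower and grey not called, and the counts of the 3 kinds stand at the right; the storage list has 13 higher and 0 lower, the photosynthesis list 0 higher and 20 lower.

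Transport genes changed in part. Of 22 genes of sodium, potassium and proton transport 10 rose and 5 fell. NHX3, a sodium and potassium exchanger of the vacuole, had 34.3, 27.7 and 34.1 CPM with NaCl, and 11.8, 11 and 9.24 CPM in control, and overlaps another gene. AHA1, the main proton pump of the plasma membrane, had 856, 810.0 and 835 CPM with NaCl, and 448, 542 and 512 CPM in control. Both were higher in each NaCl library, by 1.59 ± 0.14 and 0.74 ± 0.084. Of 16 aquaporins 3 rose and 6 fell. The seed vacuole channel TIP3;1 rose with TIP3;2, at 479.5, 359 and 505 CPM with NaCl and 31.4, 37.6 and 8.41 CPM in control. Of 10 plasma membrane channels 3 fell, 1 rose and 6 were not called. PIP2;7 had 309.7, 374 and 340.0 CPM with NaCl, and 602, 745 and 613 CPM in control, and PIP2;8 had 6.96, 9.26 and 5.76 CPM with NaCl, and 35.5, 36.3 and 42.7 CPM in control. The log2 fold changes of PIP2;7 and PIP2;8 were -0.94 ± 0.11 and -2.38 ± 0.16.

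Of 18 tested enzymes that turn stored oil into sugar 3 rose and 7 fell, with a median of -0.10 and 1 change of at least 2-fold. ICL, isocitrate lyase of the glyoxylate cycle, had 8634, 8169 and 9286 CPM with NaCl, and 8561, 9483 and 10576 CPM in control, and was not called (log2 fold change -0.13 ± 0.12, edgeR adjusted p = 0.374). MLS, malate synthase of the same cycle, had 5061, 4703 and 4498 CPM with NaCl, and 3677, 3682 and 3462 CPM in control. The ICL libraries overlapped and the MLS libraries did not (0.40 ± 0.086, edgeR adjusted p = 0.00162). PCK1, which leads from the cycle to sugar, was slightly lower, by 0.25 ± 0.088, and was not called without NaCl library 3 (-0.18, edgeR adjusted p = 0.114) or control library 2 (-0.21, edgeR adjusted p = 0.0516). In fatty acid oxidation, the acyl-CoA oxidase gene ACX4 fell by 0.51 and AIM1, which overlaps a neighbour, rose by 0.52, and PMDH2, a peroxisomal malate dehydrogenase, fell by 1.08.

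Of 13 genes of sugar and fermentation metabolism 2 rose and 5 fell. SUS3, a sucrose synthase of seeds, had 131, 100.1 and 127 CPM with NaCl, and 25.2, 21.5 and 14.6 CPM in control. The sucrose transporter SUC1 had 63.8, 74.1 and 62.0 CPM with NaCl, and 172, 149.8 and 198 CPM in control, and PDC1, pyruvate decarboxylase of fermentation, 16.0, 22.1 and 16.1 CPM with NaCl and 66.9, 76.5 and 71.7 CPM in control. SUS3 was thus the riser and the other pair fallers, with no overlap in any of them. The hemoglobin HB1, known from low oxygen, fell by 1.67. Of 11 osmoprotectant genes 5 rose and 2 fell: P5CS2, an enzyme of proline synthesis, rose by 0.52 ± 0.061, and DIN10, of the raffinose synthase family, fell by 2.76 ± 0.28. Of 10 genes of nitrogen assimilation 5 rose and 2 fell. The asparagine synthetase gene ASN1 had 60.1, 35.8 and 53.0 CPM with NaCl, and 2.95, 2.9 and 1.69 CPM in control (4.30 ± 0.29, edgeR adjusted p = 2.98e-07), and the nitrate reductase gene NIA1 rose by 0.87.

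Hormone genes of growth moved both ways. Gibberellin synthesis and inactivation had 5 of 13 higher and 4 lower. GA1, the first committed enzyme, rose by 1.58 ± 0.28 at low levels, and GA3OX2, which makes the active hormone, had 22, 37.8 and 19.7 CPM with NaCl and 71.4, 81.9 and 98.4 CPM in control. In gibberellin signalling and GASA peptides 8 of 15 rose and 5 fell. The receptor gene GID1A rose by 0.96, and RGL2, the DELLA repressor that acts in seeds, had 302, 272 and 301 CPM with NaCl and 192, 203 and 186 CPM in control. Among the GASA peptides, GASA3 had 158, 115 and 180.1 CPM with NaCl, and 9.83, 14 and 4.88 CPM in control, whereas GASA14 had 18.9, 21.7 and 19.4 CPM with NaCl, and 73.1, 100.4 and 133 CPM in control. These 2 members of 1 family separated completely in opposite directions, by 3.98 ± 0.28 and -2.35 ± 0.18.

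Ethylene genes were higher for 9 of 17 and lower for 5. The factor EIN3 had 276, 245 and 276 CPM with NaCl, and 146, 161 and 131 CPM in control, and EBF2, which degrades it, rose by 0.84 and overlaps a neighbour. Genes of the rate-limiting ACC synthase split: ACS2 had 5.48, 6.35 and 7.77 CPM with NaCl, and 0.715, 0.391 and 0.233 CPM in control, while ACS6 fell by 0.79. ACO1, an ACC oxidase, fell by 2.63 ± 0.47, and by 2.02 without control library 3. Auxin transport and response had 2 of 18 higher and 10 lower, with a median of -0.72. PIN2 and AUX1, carriers that move auxin through the root tip, fell by 0.92 and 0.67, with PIN2 at 43.2, 42.6 and 39.9 CPM with NaCl and 66.4, 72.1 and 99.9 CPM in control. The response gene IAA19 fell by 2.17 ± 0.38, at 1.33 CPM or less, and GH3.5, which conjugates auxin, rose by 0.88. Of 26 SAUR genes, small auxin-induced proteins, 11 rose and 8 fell.

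Jasmonate genes fell in 5 of 8 and rose in none. JAZ1, a repressor induced by the hormone, had 18, 22.2 and 19.7 CPM with NaCl, and 57.4, 60.5 and 55.8 CPM in control, and MYC2, the factor it restrains, fell by 0.72. Of 8 brassinosteroid genes 2 rose and 3 fell: the kinase gene BIN2, which opposes the hormone and overlaps another gene, rose by 0.59 ± 0.075, and BES1, a factor it inhibits, had 12.2, 12.4 and 12.3 CPM with NaCl and 18.2, 19.4 and 20.6 CPM in control. JAZ1 and BES1 were lower in each NaCl library than in any control library. Clock genes were higher in 8 of 17 and lower in 3. LHY, a factor of the morning, had 16.4, 14.3 and 9.78 CPM with NaCl, and 34.5, 28.4 and 22.2 CPM in control, and RVE8 and FKF1 rose by 1.39 and 1.97. The time of day of sampling is not given. An ABRE core was in 9 of 17 clock promoters (52.9%), against 7.77% of all promoters. Its part in the response of the clock genes was not tested.

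Wall genes did not move as a block. Of 19 xyloglucan endotransglucosylase/hydrolases, enzymes that cut and rejoin wall xyloglucan, 13 fell and 1 rose, with a median of -0.99. XTR7 had 13.9, 15 and 11.3 CPM with NaCl, and 154, 184 and 176 CPM in control. XTH9 had 29.4, 39.4 and 25.8 CPM with NaCl, and 189, 238 and 231 CPM in control. Both fell with tight libraries (-3.67 ± 0.12 and -2.79 ± 0.16, edgeR adjusted p = 3e-09 and 1.15e-07), as did XTH16 (-2.49), while XTR3 was the 1 member to rise, by 2.14 ± 0.27. Of 13 alpha-expansins, which loosen walls, 4 rose and 2 fell. EXPA15 had 287, 320.0 and 316 CPM with NaCl, and 75.1, 66.3 and 67.4 CPM in control, and EXPA10 had 729, 1072 and 933 CPM with NaCl, and 427, 389 and 401 CPM in control. Each was higher in all 3 NaCl libraries. EXPA1 rose by 0.52 ± 0.18 (edgeR adjusted p = 0.0274), a call lost without NaCl library 2 (0.33, edgeR adjusted p = 0.143) and without any 1 of the control libraries.

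Of 11 cellulose synthesis genes 6 fell and 1 rose. COB, which orients cellulose, had 35.9, 33.5 and 34.0 CPM with NaCl, and 49.9, 52.6 and 70.5 CPM in control. CESA1 and CESA3, subunits of the primary wall enzyme, were lower by 0.37 ± 0.12 and 0.41 ± 0.12. Without control library 3 they were at -0.23 (edgeR adjusted p = 0.111) and -0.28 (edgeR adjusted p = 0.0598), and CESA1 was also not called without NaCl library 1 or 3. Of 14 class III peroxidases 7 fell and none rose, with PRXR1 at 16.6, 20.1 and 17.1 CPM with NaCl and 45.2, 52.8 and 74.5 CPM in control. Of 7 lipid transfer proteins 5 fell and 1 rose. The riser was LTP2, with 576, 416 and 752 CPM with NaCl and 260.2, 303 and 345 CPM in control, and LTP3 fell by 2.29 ± 0.51, its control libraries ranging over 5.04, 1.96 and 11.5 CPM. Without control library 3 the fall of LTP3 was 1.48.

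Genes of division and of the cytoskeleton were lower. Of 23 genes of DNA replication and the cell cycle 18 fell and 3 rose, with a median of -0.78. MCM3 had 12.8, 14.2 and 11.8 CPM with NaCl, and 26.4, 23.8 and 33.4 CPM in control. MCM4 had 20.7, 21.9 and 17.5 CPM with NaCl, and 35.2, 32.5 and 39.7 CPM in control. The groups did not overlap in either gene, and the log2 fold changes were -1.1 ± 0.13 and -0.83 ± 0.10. PCNA1, the clamp of the DNA polymerase, and CDT1A, which licenses origins, fell by 1.08 and 1.1. MCM7, which overlaps 2 annotated neighbours, fell by 1.06. Of 44 histones 24 fell and 9 rose: the H2A variant gene HTA11 had 5.86, 5.95 and 6.3 CPM with NaCl and 15, 15.3 and 20 CPM in control. HIS1-3, a linker histone known to be induced by drought, had 8.29, 6.69 and 9.08 CPM with NaCl and 1.9, 1.34 and 0.797 CPM in control, and the histone family gene AT1G08170 rose by 4.47 ± 0.19. The histones moved apart by member, and many core histone genes are near-identical, so their counts are uncertain.

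Of 20 tubulins and actins 15 fell and 1 rose. TUB1 had 5.83, 6.61 and 5.06 CPM with NaCl, and 24.7, 26.2 and 38 CPM in control, and ACT11 had 3.39, 3.99 and 4.46 CPM with NaCl, and 18, 20.9 and 28.2 CPM in control. TUB7 and the abundant TUA6 fell by 1.38 and 0.88. ACT7, the actin of young tissue, was not called, at 738, 715 and 693 CPM with NaCl and 696, 843 and 684 CPM in control (-0.05 ± 0.091, edgeR adjusted p = 0.654). Its libraries overlapped, and the sign of its estimate turned without control library 2 (0.05). Tubulin and actin genes include near-identical copies, whose counts are uncertain for the same reason as the histones.

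Most ribosomal proteins of the cytosol fell, mostly by less than 2-fold. Of 182 cytosolic ribosomal proteins 147 fell and 1 rose, with a median of -0.39 and 5 falls of at least 2-fold. Together they summed to 106100 to 116200 CPM with NaCl and to 130400 to 162800 CPM in control. After scaling, all tested genes summed to 987100 to 1009000 CPM with NaCl and to 1009000 to 1079000 CPM in control. RPS24B, whose promoter is printed above, had 728, 753 and 718 CPM with NaCl, and 1161, 1192 and 1085 CPM in control. RPS21B had 516, 595 and 511 CPM with NaCl, and 959, 1107 and 899.5 CPM in control. Their spread within a group was small beside the difference (-0.65 ± 0.081 and -0.87 ± 0.10), and RPS17C and RPL10AC fell by 0.89 and 0.71. Most ribosomal proteins have close copies elsewhere in the genome. The elongation factor genes AT5G60390 and LOS1, both among the 5 most counted genes of a group, were not called, at -0.02 ± 0.11 and -0.11 ± 0.12. LOS1 was at -0.55 without the 5 libraries with the most 18S ribosomal RNA, which leaves 1 NaCl and 1 control library of camta6-5. Of 6 nucleolar proteins 1 fell, NOP56, by 0.33 ± 0.11 (edgeR adjusted p = 0.0209), which was not called without NaCl library 1 or 3 or control library 1 (-0.32, -0.24 and -0.27). Of 45 proteasome subunits 13 fell and 2 rose, with a median of -0.10; RPT2B fell by 0.61 ± 0.074.

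Greening genes were lower for the most part: of 23 tested 20 fell and none rose, with a median of -1.02. The list summed to 766.1 to 902.9 CPM with NaCl and to 1359 to 1688 CPM in control. RBCS2B and RBCS3B encode the small subunit of Rubisco. RBCS2B had 3.92, 4.84 and 3.65 CPM with NaCl, and 37.4, 39.8 and 52.5 CPM in control, and RBCS3B had 39.6, 52.8 and 44.0 CPM with NaCl, and 199.7, 202 and 314 CPM in control. Both lay far below control in each NaCl library (-3.38 ± 0.20 and -2.39 ± 0.23), though the copies are so alike that reads may be shared. HEMA1, the first step of chlorophyll synthesis, and PORC, a later light-dependent step, fell by 1.49 and 1.45. None of the 133 plastid-encoded genes listed had a count in any library. Of 48 tested mitochondrial genes 1 rose and 1 fell.

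Chaperones fell in 12 of 21 and rose in 1, with a median of -0.99. The proteins of folding in the endoplasmic reticulum were among them: BIP1 had 323, 318 and 276 CPM with NaCl, and 577, 523 and 645 CPM in control, CRT1, a calreticulin, fell by 1.01, and CNX1, a calnexin, by 0.75. HSC70-1, the abundant cytosolic chaperone, was not called, at 6909, 7058 and 6345 CPM with NaCl and 6495, 7956 and 7666 CPM in control. BIP1 libraries were apart and those of HSC70-1 overlapped. BIP1 has a near-identical copy. Of 18 heat shock factors 6 rose and 8 fell. HSFA7A had 1.94, 1.97 and 1.0 CPM with NaCl, and 27.7, 21.1 and 10.7 CPM in control, and HSFA2 had 29.3, 22.6 and 23.7 CPM with NaCl, and 141, 107 and 45.3 CPM in control. Control library 3 was the lowest of its group for both and still above NaCl (-3.58 ± 0.43 and -1.96 ± 0.41, edgeR adjusted p = 1.89e-05 and 0.00132).

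Of 16 genes of reactive oxygen species 8 rose and 4 fell. PER1 had 284, 184 and 286 CPM with NaCl, and 30.9, 19.5 and 10.5 CPM in control, and the catalase gene CAT3 had 336, 302 and 472 CPM with NaCl, and 70.1, 76.6 and 85.4 CPM in control. APX1, the cytosolic ascorbate peroxidase, and FSD1, an iron superoxide dismutase, fell, with APX1 at 23.6, 21.8 and 20.7 CPM with NaCl and 82.1, 76.1 and 117 CPM in control. The 2 directions held in every library of these genes, at 3.63 ± 0.30 for PER1, 2.26 ± 0.16 for CAT3, -2.05 ± 0.26 for APX1 and -2.1 ± 0.28 for FSD1. Of 36 glutathione S-transferases 15 rose and 8 fell. GSTF2 rose by 2.76 ± 0.35, with 14.8, 16.5 and 38 CPM with NaCl and 4.26, 3.78 and 2.13 CPM in control, and has a close copy. GSTF9 fell by 2.50 ± 0.22.

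Of the larger families, 16 of 54 NAC factors rose and 17 fell, 13 of 37 WRKY factors rose and 11 fell, and 60 of 243 pentatricopeptide repeat proteins, which process organelle RNA, rose and 27 fell, none of them by 2-fold. NAC032 had 24.0, 25.8 and 28.1 CPM with NaCl, and 11.1, 10.1 and 7.48 CPM in control. WRKY15 rose by 0.98 and WRKY18 had 96.2, 99.8 and 101 CPM with NaCl and 157, 163 and 146 CPM in control. As shares, the NAC factors were called higher in 29.6% and lower in 31.5%, the WRKY factors in 35.1% and 29.7%, and the pentatricopeptide repeat proteins in 24.7% and 11.1%, beside 28.2% and 27.5% of all tested genes.

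The response of camta6-5 differed from that of wild type for many genes. The interaction, the log2 fold change in camta6-5 minus that in wild type, was called for 8905 of 18515 genes (48.1%), 5017 of them above 0 (27.1%) and 3888 below (21.0%). Of the 10301 genes called in camta6-5, 9456 (91.8%) had the same sign in wild type, and 7663 (74.4%) had a smaller change in camta6-5. Their median absolute change in wild type was 0.95 on the log2 scale, beside 0.58 in camta6-5. Across the 18515 genes, which are not independent replicates, the 2 sets of log2 fold changes had a Pearson r of 0.83 and a Spearman rho of 0.80.

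Of the lists, ER bodies had the widest median gap. These compartments of the endoplasmic reticulum of mustard relatives hold beta-glucosidases for defence. All 6 tested genes fell in camta6-5 by a median of 1.64, and the median change in wild type was -8.23. PYK10, the main beta-glucosidase of ER bodies, had 882, 726 and 982 CPM with NaCl and 1671, 1723 and 2669.5 CPM in control in camta6-5, and in wild type 5.17, 1.65 and 4.52 CPM with NaCl and 1307, 1257 and 1839 CPM in control. PBP1, a lectin that binds it, had 207, 196 and 238 CPM with NaCl and 583, 689.8 and 954 CPM in control in camta6-5, and in wild type 2.81, 2.1 and 3.84 CPM with NaCl and 602, 576 and 867 CPM in control. With NaCl both were thus abundant in camta6-5 and at a few CPM in wild type, while the control levels of the genotypes overlapped for both. Levels before the treatment were not measured, so whether these messages were lost over time was not tested. The interactions were 7.36 for PYK10 and 6.07 for PBP1 (edgeR adjusted p = 3.16e-07 and 1.71e-07), and 4.70 and 3.45 for NAI2, which builds ER bodies, and NAI1, the factor that controls them. PYK10 overlaps a neighbouring gene.

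Among genes called in camta6-5 and in the interaction, with a mean of at least 20 CPM in a camta6-5 group, the lectin gene AT3G16460 had the largest interaction, 8.02. It had 67.5, 58.3 and 72.5 CPM with NaCl and 189.7, 199.6 and 363 CPM in control in camta6-5, and in wild type 0.417, 0.150 and 0.171 CPM with NaCl and 205, 201 and 341 CPM in control. MLP28, of the major latex protein family, and AT5G23820, a predicted lipid recognition protein, followed at 7.15 and 6.79. AT3G16460 was at 8.63 without wild-type NaCl library 1, and AT5G23820 at 7.61 without wild-type NaCl library 3. With 8 and 11 counts in all over the wild-type NaCl libraries of MLP28 and AT5G23820, the sizes of these differences are uncertain.

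The opposite pattern, a rise that was smaller in camta6-5, was led, under the same limit of 20 CPM, by UGT74E2, a glucosyltransferase for the auxin indole-3-butyric acid. It had 27.1, 34.0 and 64.6 CPM with NaCl and 25, 24.3 and 13.6 CPM in control in camta6-5, and in wild type 248, 332 and 240.4 CPM with NaCl and 15.3, 21.9 and 13.7 CPM in control. The control levels of the genotypes were alike in range and the NaCl levels did not overlap (interaction -3.02, edgeR adjusted p = 0.00013). Its rise within camta6-5 was 0.99 ± 0.30 and was not called without NaCl library 3 (0.54, edgeR adjusted p = 0.0944) or control library 3 (0.76, edgeR adjusted p = 0.0547). LEA7, the uncharacterised AT4G27530, the predicted factor gene AT4G18650 and the DREB-type factor gene RAP2.9 had interactions of -2.42, -2.26, -2.20 and -2.19. LEA7 and AT4G27530 overlap neighbouring genes.

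Lists differed in how the genotypes compared. DNA replication and the cell cycle fell by a median of 0.78 in camta6-5 and of 1.68 in wild type. Of its 23 interactions, 15 were called above 0 and 1 was called below. Proteasome subunits moved apart, with medians of -0.10 in camta6-5 and 0.63 in wild type, and 41 of 45 interactions called below 0. The storage list was close in both, at 3.6 and 4.06, with 5 of 13 interactions called below 0 and none called above. The LEA list had medians of 2.18 in camta6-5 and 3.47 in wild type, with 11 of 20 interactions called below 0. PDC1 stood out among sugar genes: it fell by 1.99 in camta6-5, while in wild type it had 71.0, 88.6 and 64.2 CPM with NaCl and 59.9, 52.2 and 86.6 CPM in control (interaction -2.16, edgeR adjusted p = 3.43e-05). GH3.5 and LTP2 rose in camta6-5, where their wild-type log2 fold changes were -2.80 and -0.89 (interactions 3.69 and 1.83).

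**Figure D5:**
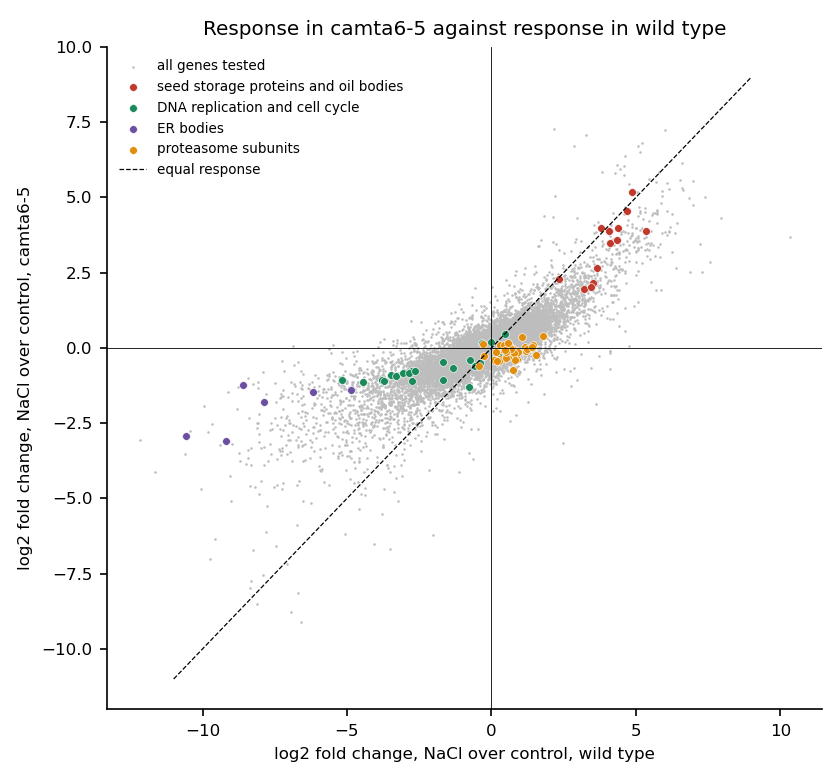
Log2 fold change, NaCl over control, in camta6-5 (y axis) against that in wild type (x axis) for 18515 genes, with 4 lists coloured and a dashed line of equal response. ER body genes (purple) lie at a median of -1.64 in camta6-5 and -8.23 in wild type, and proteasome subunits (orange) at -0.10 and 0.63.

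Without the 5 libraries with the most 18S ribosomal RNA, 4 of them of camta6-5, 5254 genes were called for NaCl in camta6-5, 2796 higher and 2458 lower, and 4577 for the interaction; that leaves 1 NaCl and 1 control library of camta6-5, assumed to vary like the other groups. No gene called in both ways changed direction.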

How the data were processed

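RNA libraries were made with a kit that does not mark strand, per the labels' protocols. The authors deposited raw read counts per gene, whole numbers with unequal totals; per the submitters' processing notes, cutadapt 1.9, TopHat2 2.1.0, Bowtie2 2.2.6, HTSeq 0.6.1, DESeq2 1.10.0 and the build TAIR10 were used. The settings are not given in the sources used here, so counts of near-identical or overlapping genes are uncertain. Genes were filtered by filterByExpr of edgeR 4.0.16 (R 4.3.3, 4 groups, minimum count 10, minimum total 15), and libraries were scaled by TMM. All 12 libraries entered 1 quasi-likelihood fit with a mean for each group, which left 8 residual degrees of freedom. Tests were two-sided with Benjamini-Hochberg adjustment over 18515 genes. The fit was run on simulated counts in which few genes changed, all upward and in 1 group. It recovered 42 of 67 genes changed 1.5-fold, 62 of 67 changed 2-fold and 66 of 66 changed 4-fold. The real data hold far more calls, in both directions, so the simulation did not check scaling or error rates for them. SE is the size of the log2 fold change over the root of its F value. Alternatives used limma 3.58.1 and DESeq2 1.42.0.

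The 47 gene lists, markers included, and the genes named were chosen with earlier results of these data known. Named genes are CAMTA6, the 8 largest rises and falls with a mean of at least 20 CPM in the higher group and libraries that do not overlap, up to 6 members of a list with the smallest adjusted p, the 5 largest interactions each way among genes called in both tests with a mean of at least 20 CPM in a camta6-5 group, and the 5 most counted genes of a group. From the 282 genes this gives, 138 are named; of 16 more, chosen after their values were seen, most account for lists that moved both ways (PCK1, SESA1, SAG21, ABI1, CYP707A2, ABI3, ABF3, RGL2, HSFA2, ACO1, MCM7, TUA6, ACT7, GSTF2, RPL10AC, WRKY15). No promoter table was used: promoters come from the TAIR10.1 genome, and each ends at the more upstream of the deposited start and RefSeq start. Gene families were matched by RefSeq names, and 32835 listed genes were found in that annotation.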

Additional observations from a re-analysis of the deposited data

Results flagged for a closer look

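Of 154 named genes, 100 had a response in camta6-5 that differed from that in wild type by the interaction term (edgeR adjusted p under 0.05), 70 above 0 and 30 below. Of all tested genes, 48.1% had a called interaction, 27.1% above 0 and 21.0% below. Some named genes were chosen by their interaction and most others by a strong response, so the count of 100 partly follows from the choice. Each value is the log2 fold change for NaCl in camta6-5 minus that in wild type.

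Among genes that fell with NaCl in camta6-5, values above 0 mean a smaller fall than in wild type. They were 8.02 for AT3G16460, 7.36 for PYK10, 7.15 for MLP28, 6.79 for AT5G23820, 6.07 for PBP1, 4.70 for NAI2 and 3.45 for NAI1. In surface and wall genes they were 4.79 for KCS19, 4.44 for ELP, 2.53 for AT4G15160, 2.24 for PMEPCRA, 2.87 for LTP3, 2.86 for XTH9, 2.50 for XTH16, 1.65 for XTR7, 2.54 for PRXR1, 0.76 for CESA3, 0.64 for CESA1 and 0.47 for COB. KCS19 had only 2, 2 and 0 counts in the wild-type NaCl libraries, and ELP had 9, 7 and 14. AT4G15160 had 6, 8 and 14 counts there, so the sizes of the interactions of KCS19, ELP and AT4G15160 are uncertain.

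In genes of division and the cytoskeleton they were 4.13 for MCM7, 2.71 for PCNA1, 2.61 for MCM3, 2.24 for MCM4, 1.66 for CDT1A, 3.08 for HTA11, 2.93 for TUB1, 2.78 for ACT11, 1.55 for TUA6 and 1.13 for TUB7. The root factor SHR was at 2.24. In hormone genes they were 2.62 for PIN2, 1.96 for AUX1, 2.03 for IAA19, 2.87 for GASA14, 2.0 for GA3OX2, 1.58 for CYP707A3, 1.3 for ACS6, 1.07 for PYL4, 1.05 for BES1, 0.98 for MYC2 and 0.77 for PYR1.

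In metabolism, greening and folding they were 4.19 for SUC1, 2.23 for DIN10, 1.62 for PMDH2, 0.61 for ACX4, 0.33 for PCK1, 1.96 for PORC, 1.51 for RBCS3B, 1.17 for RBCS2B, 0.57 for HEMA1, 1.09 for CNX1, 0.98 for CRT1 and 0.70 for BIP1. In stress genes they were 1.95 for HSFA2, 1.67 for GSTF9, 1.53 for FSD1, 1.15 for APX1, 1.19 for CBF1, 0.91 for CBF2 and 1.42 for PIP2;8, and RPS21B was at 0.41. Genes not called within camta6-5 gave 0.75 for ICL, 0.65 for HSC70-1 and 0.43 for AT5G60390.

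Genes that rose in camta6-5 with values above 0 were GH3.5 at 3.69, LTP2 at 1.83, EXPA15 at 0.71, AHA1 at 0.36, AIM1 at 0.36 and P5CS2 at 0.24.

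Values below 0 belonged mostly to genes that rose less in camta6-5. They were -3.02 for UGT74E2, -2.42 for LEA7, -2.40 for LTI30, -2.26 for AT4G27530, -2.20 for AT4G18650, -2.19 for RAP2.9, -2.15 for RD29B, -2.53 for HIS1-3, -1.57 for NAC032, -1.52 for AT2G42000, -1.25 for AT1G08170 and -1.03 for AT3G05260. In seed and ABA genes they were -1.64 for CYP707A2, -1.47 for CLO1, -1.25 for SESA1, -1.25 for SOM, -1.09 for EM6, -1.05 for AHG1, -0.58 for ABI3, -0.53 for LEA14 and -0.50 for ABA1. Others were -1.17 for NHX3, -1.03 for GASA3, -0.80 for GID1A, -0.78 for CAMTA4, -0.53 for EIN3, -0.47 for BIN2 and -0.33 for CAMTA5. PDC1 at -2.16 and NOP56 at -0.71 fell in camta6-5.

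With each of the 12 libraries left out in turn, 16 of these 100 lost the call at least once. The ranges were 0.26 to 0.40 for PCK1, 0.18 to 0.27 for P5CS2, 0.32 to 0.62 for COB, 0.30 to 0.57 for AT5G60390, -0.44 to -0.27 for CAMTA5, 0.40 to 0.89 for EXPA15, 0.30 to 0.48 for RPS21B and 0.26 to 0.40 for AHA1. They were -1.37 to -0.68 for GASA3, 1.5 to 3.23 for IAA19, -0.65 to -0.40 for LEA14, -1.34 to -0.83 for AT3G05260, -0.60 to -0.38 for ABA1, -1.42 to -0.92 for EM6, 1.65 to 2.93 for AT4G15160 and 0.70 to 1.35 for APX1.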

How the results depend on the processing

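The counts called for NaCl in camta6-5 (10301) and for the interaction (8905) stayed within 1.5 times under other scaling, filters and tests; calls for NaCl were higher in 50.6% as reported, in 46.7% in DESeq2 and in 55.9% without scaling. Leaving out 1 library gave 8895 to 9852 and 7878 to 8877. Without the 5 libraries richest in 18S ribosomal RNA, an alternative chosen after seeing the data, they were 5254 and 4577, with fewer samples; 16 named responses and 25 named interactions were then not called. The responses were MLS, LEA7, PYK10, ABI1, PMDH2, GA1, NIA1, ACO1, GH3.5, IAA19, CESA1, CESA3, EXPA1, LTP3, NOP56 and SCR, all of the same sign. LOS1 was then at -0.55, from 1 NaCl and 1 control library of camta6-5. Counting list members past 2-fold gave 253 (105 higher, 148 lower) in place of 752 (285 higher, 467 lower). The ABRE share of the higher genes was 13.2% in a shorter window in place of 17.8%. The sign turned for genes not called as reported: AT5G60390 was at 0.03 without scaling, and with 1 library left out it ranged from -0.13 to 0.14 (0.01 without NaCl library 3), LOS1 from -0.21 to 0.05 and ACT7 from -0.11 to 0.05, all 3 highest without control library 2. With the replicate number as a block, 9647 and 8975 genes were called. Deviations of same-numbered NaCl and control libraries of camta6-5 had correlations of 0.166, -0.0907 and -0.120, which cannot tell whether the libraries were paired. With the block, CAMTA6 and EXPA1 were not called (edgeR adjusted p = 0.0641 and 0.0508). Nor were the interactions of CAMTA5, AT3G05260, PCK1, LEA14 and GASA3 (edgeR adjusted p = 0.0622, 0.0588, 0.0583, 0.0644 and 0.0581). Depth limits genes near the count limit of 3.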

Other observations

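Several families outside the lists also moved with NaCl in camta6-5. They were picked after the values had been seen, so their counts are descriptions with no test. Of all tested genes 28.2% rose and 27.5% fell. Of 38 GDSL-like lipases, esterases of the wall and cuticle, 25 fell, 18 of them at least 2-fold, and 2 rose, with a median log2 fold change of -0.98. Of 40 proteins with a cysteine- and histidine-rich C1 domain, 26 fell, 24 of them at least 2-fold, and 2 rose, with a median of -1.28. Of 9 SKU5-similar proteins, relatives of copper oxidases at the cell surface, 7 fell and none rose, with a median of -1.12. Of 10 pectin acetylesterases 7 fell and none rose, with a median of -0.86. Of 8 sulfate transporters 6 fell and 1 rose, with a median of -1.46, beside the fall of SDI1. Among families with more rises, 5 of 13 berberine family oxidoreductases rose and 1 fell, with a median of 0.81, and 23 of 56 UDP-glycosyltransferases rose and 13 fell.

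Genes that changed at least 2-fold often had a neighbour on the chromosome that did the same. Of the 1117 higher genes 215 (19.2%) had such a neighbour among the nearest tested genes on either side, where 11.6% of all tested genes had one. For the 1580 lower genes it was 428 (27.1%), where 16.2% of all tested genes had one. The median annotated span was 1726 bases for the higher genes, 1879 bases for the lower genes and 2229 bases for all tested genes. Reads from overlapping neighbours and tandem copies can move together, and their part in these shares was not tested.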
